A study of Rattus norvegicus with 2 samples.

Results

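Neurotrophins are secreted proteins that support the survival, growth and synaptic plasticity of neurons. The genes described here are 2 neurotrophins, Bdnf (brain-derived neurotrophic factor) and Ntf3 (neurotrophin-3), and 3 receptors, Ntrk2 (TrkB, the receptor of BDNF), Ntrk3 (TrkC, the receptor of neurotrophin-3) and Ngfr (the p75 neurotrophin receptor). All probe sets with 1 of these symbols as their only gene symbol in the platform annotation were taken, which gave 15 of the 8740 non-control probe sets and 5 of the 4736 genes named on the array. RNA from synaptosomes, a biochemical fraction of pre- and postsynaptic nerve endings, was compared with RNA from the total hippocampus, both from Sprague Dawley rats at postnatal day 70, with no treatment recorded. There was 1 array per group, so every value is a single measurement, no test between the groups was possible, and the number of arrays limits the precision. Whether animals were pooled, and how many, is not recorded.

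Trk receptors are tyrosine kinases that bind a mature neurotrophin and signal through the Ras-MAP kinase, PI3 kinase-Akt and phospholipase C pathways. The p75 receptor binds all neurotrophins and their precursors and, with other partners, can signal for cell death or growth arrest. In the hippocampus BDNF acts through TrkB in long-term potentiation, and mRNAs of both have been found in dendrites. Ntrk2 and Ntrk3 each make full-length receptors and truncated forms without the kinase, and truncated TrkB is the main form in astrocytes. The platform annotation gives a symbol, a gene identifier and a source sequence for a probe set but no isoform, so full-length and truncated forms could not be separated. RefSeq (assembly GRCr8) lists 14 transcripts for Ntrk2, 8 for Ntrk3, 11 for Bdnf, 5 for Ntf3 and 1 for Ngfr.

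Ntrk2 had a higher signal in synaptosomes with the probe set that read it, and Ntf3 a lower one with its brightest probe set. Ntrk3 had nearly equal signals, and Bdnf and Ngfr were divided among their probe sets. Signals are the authors' deposited intensities on a linear scale. For ratios, signals under 846, the median of all non-control values, were set to this floor, and the log2 ratio of synaptosomes over hippocampus was centred on its median over all probe sets past a filter on mean level, which was -0.17 before centring. A fold includes this centring and is "at least" where 1 array was at the floor. The size of negative intensities, which carry no signal, shows the noise: its 95th percentile was 2912.6 for synaptosomes and 5280.25 for the hippocampus, called the noise size below. Of the 15 probe sets, 4 exceeded it in synaptosomes, 2 in the hippocampus and 1, for Ntf3, on both arrays. Bounds from signals below the noise size are uncertain.

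**Figure D1:**
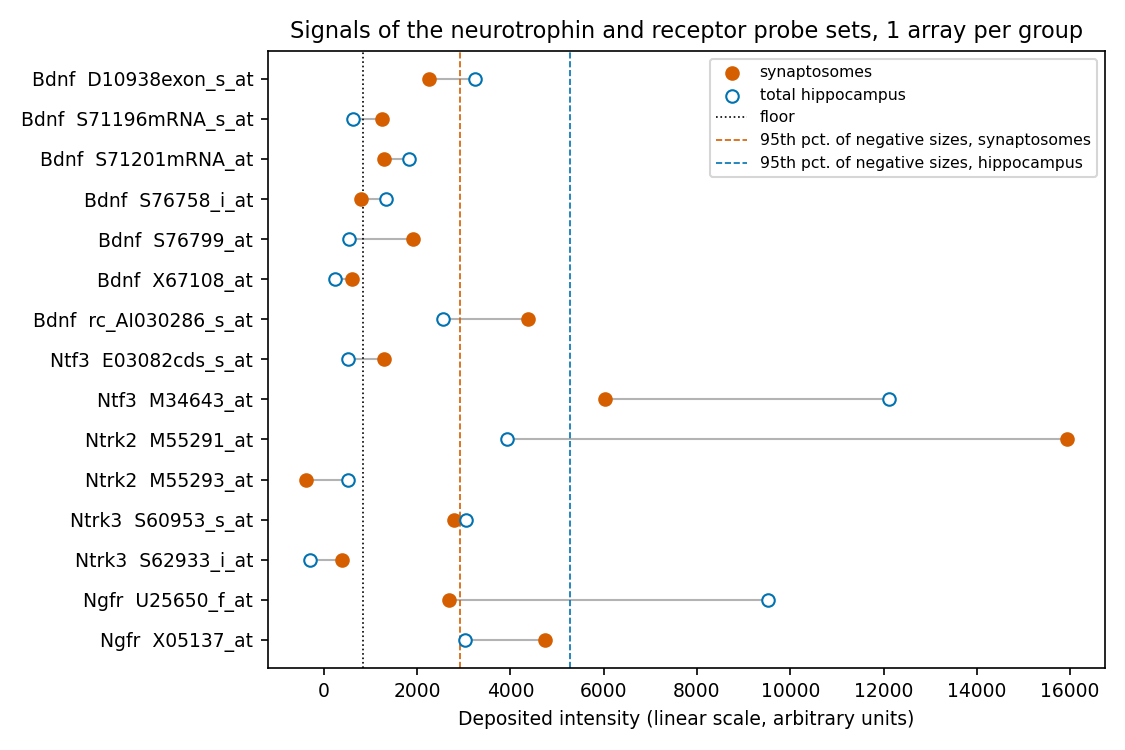
Deposited intensity (linear scale, arbitrary units) of the 15 probe sets in synaptosomes (filled) and total hippocampus (open), 1 array each, with dashed lines at each noise size and a dotted line at the floor of 846. Ntrk2 M55291_at has the widest gap, 15928 against 3922, and all 7 Bdnf probe sets read 4379 or less on both arrays.

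The filter was passed by 9 of the 15 probe sets, of which 2 were higher in synaptosomes by 2-fold or more, 1 was lower by 2-fold or more and 6 lay between. Over all 4370 probe sets past the filter, the shares past 2-fold were 19.1% higher and 14.9% lower. The counts among the members are near this background. The median log2 ratio of the 9 was 0.04, against 0 over all probe sets, where centring puts it. Of the 6 that did not pass, 3 were at the floor on both arrays and have no ratio. The filter uses the mean of both arrays, so a dim probe set passes more easily where 1 array is high. In each of the 5 genes, 1 or more probe sets had the higher raw signal in synaptosomes and 1 or more in the hippocampus, although in several of these pairs both signals lay under the floor or the noise size.

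Bdnf had 7 probe sets, and their directions differed. The brightest, rc_AI030286_s_at, read 4379 in synaptosomes and 2547 in the hippocampus, a log2 ratio of 0.95 or 1.93-fold higher, just under the 2-fold line. Probe set S76799_at read 1902 and 539, at least 2.53-fold higher with the hippocampus at the floor, and it has no ratio where the floor is raised to 2798.5. In contrast, D10938exon_s_at read 2264 in synaptosomes and 3234 in the hippocampus, a log2 ratio of -0.34. A similar ratio of -0.34 came from S71201mRNA_at, with 1288 and 1829. The first pair thus had its higher signal in synaptosomes and the second pair in the hippocampus.

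The other 3 Bdnf probe sets did not pass the filter. S71196mRNA_s_at read 1254 in synaptosomes and 636 in the hippocampus, a bound of 0.74 on the log2 scale, and S76758_i_at read 805 and 1344, a bound of -0.50. X67108_at, with 613 and 237, was under the floor on both arrays. Over the 6 probe sets with a ratio, 3 were positive and 3 negative, the median was 0.20 and the SD was 0.79. The within-gene SD of probe set ratios was 0.90 over the 658 genes with several past the filter. It covers passing probe sets only, whereas the Bdnf SD includes bounds and probe sets that did not pass. The SDs are therefore not of the same kind. With their signs divided, these readings do not set a direction for Bdnf. Only rc_AI030286_s_at in synaptosomes exceeded the noise size of its array.

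Ntf3 had the member probe set with the brightest hippocampus signal. M34643_at read 6039 in synaptosomes and 12113 in the hippocampus, both above the noise size, a log2 ratio of -0.83 or 1.78-fold lower with centring. The uncentred quotient was 2.01, so this probe set crosses the 2-fold line without centring. The other, E03082cds_s_at, read 1294 and 523, a bound of 0.78 in the opposite direction, but did not pass the filter and lay within the noise on both arrays. The 2 neurotrophins listed here are thus opposite in sign with their brightest probe sets, 0.95 for Bdnf and -0.83 for Ntf3, and neither reached 2-fold with centring. With S71201mRNA_at Bdnf has -0.34, the sign of Ntf3, so the contrast depends on the choice of probe set. Of the remaining neurotrophins, Ntf4, a further ligand of TrkB, was at the floor on both arrays with both of its probe sets, the highest reading being 671.

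Ntrk2 had the largest ratio of the members, on 1 probe set. M55291_at read 15928 in synaptosomes and 3922 in the hippocampus, a log2 ratio of 2.19 or 4.57-fold higher, and 4.06-fold as the plain quotient of the signals. Its synaptosome signal is far above the noise size of that array, and its hippocampus signal is below that of the other, so the size of the fold is less certain than its direction on these arrays. With both signals floored at 5280.25 the hippocampus was at the floor and the bound was 1.68. The log2 ratio was 2.02 to 2.15 over the other alternative settings for the probe set. Among the 3392 filtered probe sets above the floor on both arrays, 1.42% had a higher ratio. The ratio is larger than the within-gene SD of 0.90. That SD leaves out differences between animals, preparations and amplifications, so it does not measure the error of this ratio.

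The other Ntrk2 probe set, M55293_at, read -383 in synaptosomes and 513 in the hippocampus. It was under the floor on both arrays, so neither a level nor a difference was detectable with it. The receptor thus rests on 1 reading, and which of its transcripts that probe set reads is not given in the annotation.

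**Figure D2:**
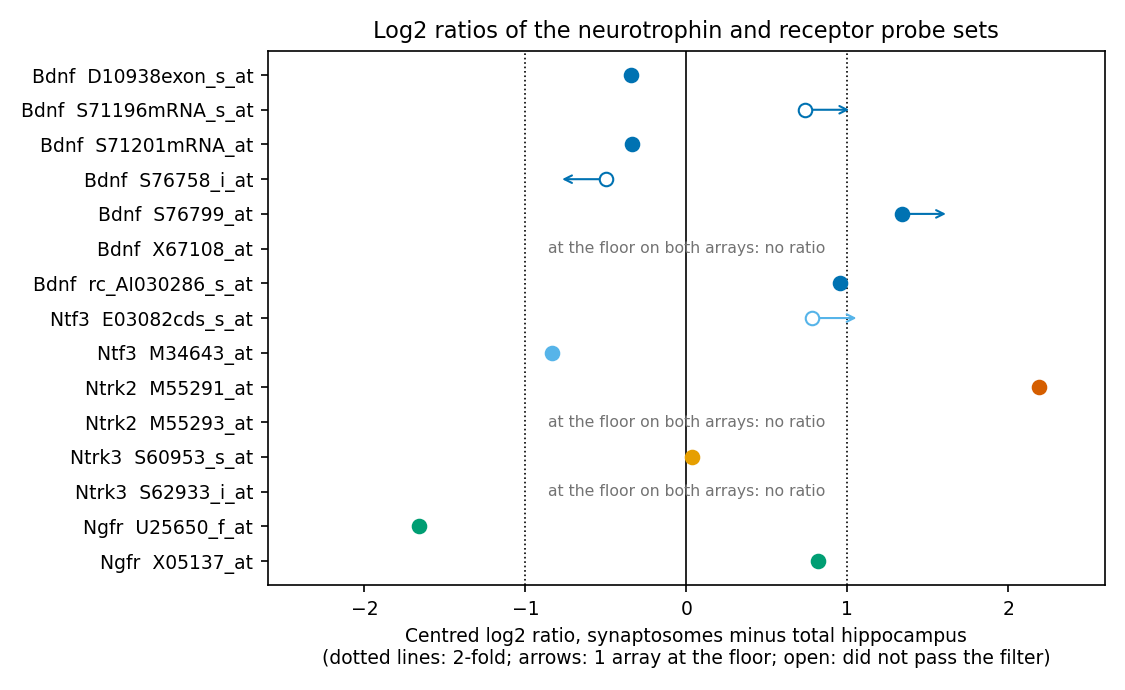
Centred log2 ratio of synaptosomes over total hippocampus for each probe set, 1 array per group; arrows mark bounds with 1 array at the floor, open points did not pass the filter, and dotted lines mark 2-fold. Ntrk2 M55291_at at 2.19 and Bdnf S76799_at at 1.34 lie beyond the upper line and Ngfr U25650_f_at at -1.66 beyond the lower one.

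Ntrk3 differed little between the arrays. S60953_s_at read 2782 in synaptosomes and 3055 in the hippocampus, a log2 ratio of 0.04 with centring and -0.14 without it. Both signals were within the noise size of their arrays, so a difference of moderate size was not detectable. S62933_i_at read 398 and -286 and was under the floor on both arrays. TrkB and TrkC, which share one receptor architecture, thus had log2 ratios of 2.19 and 0.04 with their brightest probe sets; with 1 array per group the gap between them was not tested.

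Ngfr had opposite readings from its 2 probe sets, both past the filter. U25650_f_at read 2678 in synaptosomes and 9532 in the hippocampus, a log2 ratio of -1.66 or 3.16-fold lower, and among the 3392 probe sets above the floor on both arrays 97.2% had a higher ratio. With both signals floored at 5280.25 the bound was -0.76, which no longer reaches 2-fold. X05137_at read 4752 in synaptosomes and 3032 in the hippocampus, a log2 ratio of 0.82 or 1.76-fold higher. In Affymetrix naming the letter f before the ending marks a design whose probes can match members of a sequence family, and X05137_at carries no such letter. Without suffixed probe sets Ngfr is therefore represented by 0.82 and with the brightest by -1.66, which leaves no direction for the gene. The SD of its 2 ratios was 1.75, against 0.90 over genes. Sort1 (sortilin), which joins p75 in a receptor for precursor neurotrophins, was at the floor on both arrays with both of its probe sets, at 445 and -575 and at 7 and 73.

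**Figure D3:**
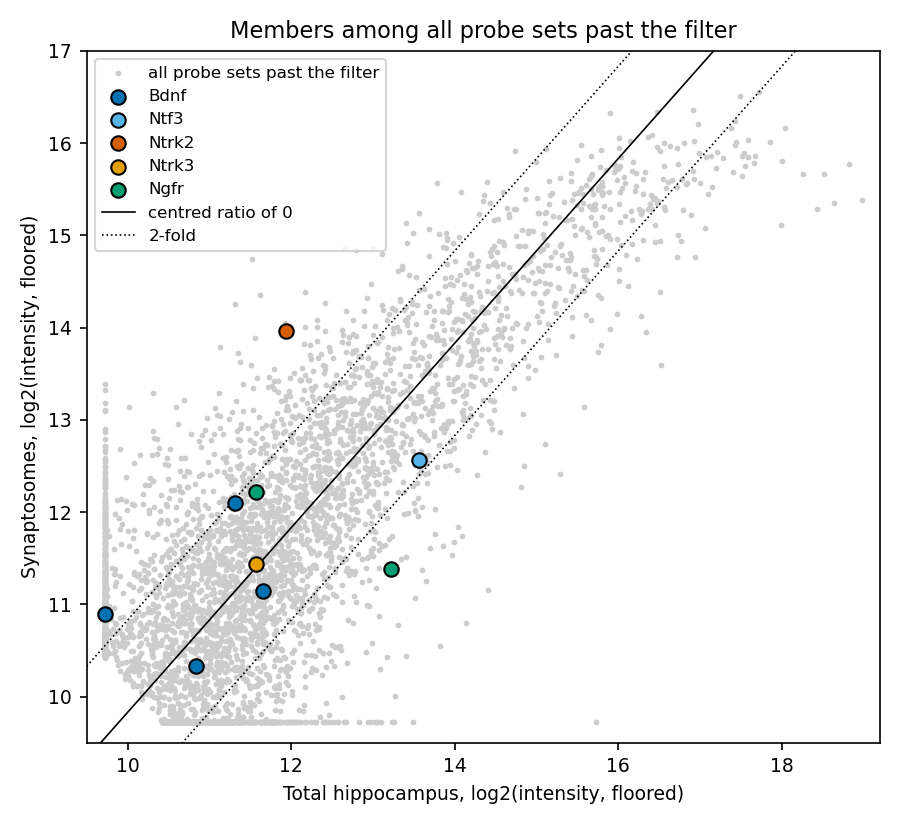
Floored log2 intensity on the synaptosome array against the hippocampus array for the 4370 probe sets past the filter (grey), with the 9 member probe sets that passed in colour, the line of a centred ratio of 0 and dotted 2-fold lines. Ntrk2 lies above the upper 2-fold line, 1 Ngfr probe set lies below the lower one, and the other members lie within or, for 1 Bdnf probe set at the hippocampus floor, above them.

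The genes whose ratio lay nearest to that of Ntrk2, among 2170 non-member genes above the floor on both arrays, were L1cam, a neural adhesion molecule, Slc27a1, a fatty acid transporter, and Rasgrf1, a calcium-dependent activator of Ras. L1cam read 5168 in synaptosomes and 1267 in the hippocampus, a log2 ratio of 2.20. Slc27a1 read 5171 and 1266, and Rasgrf1 read 3908 and 956. For the brightest Bdnf probe set the nearest were Pde2a, Ehmt2 and Mfn2, and for M34643_at of Ntf3 they were Tpp2, Slc37a4 and Eif4e. Ppt2, Cnksr2 and Gstm1 were nearest to Ntrk3. The lower Ngfr probe set was nearest to Mfng, Cyp27a1 and Or1f20, and the higher one to Cdk17, Ptgs1 and Ywhag. For D10938exon_s_at of Bdnf these were Cyp4a8, C1qbp and Atp4b, and for S71201mRNA_at Nolc1, Sec11a and Ctse. The likeness is a ratio over 2 arrays only.

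Genes that act with the neurotrophins were taken from lists by role. Apart from the members, 63 of the 98 listed genes were found on the array and 42 passed the filter, with 15 past 2-fold on the higher side in synaptosomes, 4 on the lower side and 23 between. These shares, 35.7% and 9.52%, stand beside 19.1% and 14.3% over all 2735 genes past the filter, each represented by its brightest probe set. Without centring the split over all genes moved, from 57.2% higher among genes past 2-fold to 43.1%. The median of the 42 was 0.60, against 0.00 over all genes. Some of these ratios are bounds, from genes that passed the filter with 1 array at the floor. Past 2-fold these were Nras, Irs2 and Vgf on the higher side and Mapk8 on the lower side. Genes of this kind are in the background as well. With the members included, 16 of 47 were higher and 5 lower, with a median of 0.56. Without centring 12 of these genes were higher and 7 lower, with a median of 0.39. With both arrays floored at 5280.25 these counts were 4 and 2, so they depend on signals within the noise. The lists were drawn up with some of these genes' ratios already known, so the counts are a description.

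Receptor adaptors couple Trk receptors to their pathways, and 0 of the 6 that passed reached 2-fold in either direction with their brightest probe sets. Grb2, which recruits Sos1 to activate Ras, had the highest ratio, 0.91 with signals of 11458 and 6854, and -0.09 and 0.57 with its other probe sets. Sos1 had a ratio of 0.08, Shc3, a neuronal Shc adaptor, -0.92, Sh2b1 -0.61 with its brighter probe set and -1.14, past 2-fold, with the other, and Plcg1, the phospholipase that binds Trk, -0.32. The adaptors thus lay on both sides of 0, with a median of -0.25.

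In the Ras-MAP kinase arm 6 genes passed, 2 of them at least 2-fold higher and 0 lower. Nras read 5558 in synaptosomes and 314 in the hippocampus with the brighter probe set, at least 7.39-fold higher, while its other probe set was at the floor on both arrays. Rap1b, a small GTPase that feeds the MAP kinase pathway, had ratios of 1.09 and 0.91 with signals near the floor. Map2k1, the kinase MEK1 that activates ERK, had ratios of 0.78, 0.38 and 1.30 with its 3 probe sets, all of one sign. The median of the 6 genes was 0.71.

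The PI3 kinase-Akt arm had 4 genes past the filter of the 10 on the array, 3 of them at least 2-fold higher. Akt1, the survival kinase, read 13524 in synaptosomes and 2618 in the hippocampus, a ratio of 2.54, and its second probe set gave a bound of 1.15. Mtor, which controls translation, had a ratio of 1.70 with 4956 and 1716. Irs2, an adaptor, had a bound of 2.42 with 1 probe set and negative bounds of -0.85 and -0.57 with others. The hippocampus signals of Akt1, Mtor and Irs2 were within the noise size of that array, as that of Ntrk2 was.

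In the phospholipase C and calcium arm 9 genes passed, with 3 past 2-fold on the higher side, 2 on the lower side and a median of -0.22. Itpr1, the receptor that releases calcium in response to inositol trisphosphate, had a ratio of 1.75 with J05510_at and -0.21 with U38653_s_at. Prkcb, a protein kinase C, had ratios of 1.01, 1.17 and 1.85 with its 3 probe sets, and the first read 21659 in synaptosomes and 12116 in the hippocampus. Camk2d had a ratio of 1.43 with its brightest probe set and -0.42 with another, and 2 further probe sets gave bounds of -0.92 and -0.85. Calm2, a calmodulin gene, read 54209 and 149895, a ratio of -1.30. Camk2g had a ratio of -1.21 and a bound of -0.69, and Camk2b ratios of -0.51 and 0.29.

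Among p75 partners and effectors 3 genes passed. Mapk8, the stress kinase JNK1, read 498 in synaptosomes and 3238 in the hippocampus, at least 3.40-fold lower. Mapk9 had a bound of -0.53, and Bex3, a protein that binds the p75 intracellular domain, had ratios of 0.17 and 0.56. The median of the 3 was -0.53, which is the Mapk9 bound. The Mapk8 and Mapk9 signals were within the noise size of their arrays.

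Transcripts that respond to neuronal activity or Trk signalling had 9 of 13 genes past the filter, of which 5 were higher and 1 was lower by 2-fold or more. Vgf, a secretory peptide precursor induced by neurotrophins, read 4214 in synaptosomes and -1435 in the hippocampus, at least 5.60-fold higher. Nptx2, a secreted protein that clusters AMPA receptors, read 4854 and 1485, a ratio of 1.88, and a second design on the same source sequence gave a bound of 2.95 with a hippocampus reading of -22863. Arc read 7351 and 2305, a ratio of 1.84. Npy read 7629 and 22487, a ratio of -1.39. The median of the 9 was 1.12.

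Proteases and transport proteins that mature or carry neurotrophins had 5 genes past the filter, 2 of them at least 2-fold higher. Pcsk2, a prohormone convertase, had a ratio of 1.45 and a bound of 0.98. Dctn1, the large subunit of the dynein adaptor dynactin, read 20288 in synaptosomes and 10320 in the hippocampus, a ratio of 1.15. Mmp9, a protease able to cleave pro-BDNF, had a bound of 0.998 with signals of 1502 and -31. Cpe, carboxypeptidase E, which sorts pro-BDNF to the regulated pathway, had a ratio of -0.10 with 55340 and 66686.

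**Figure D4:**
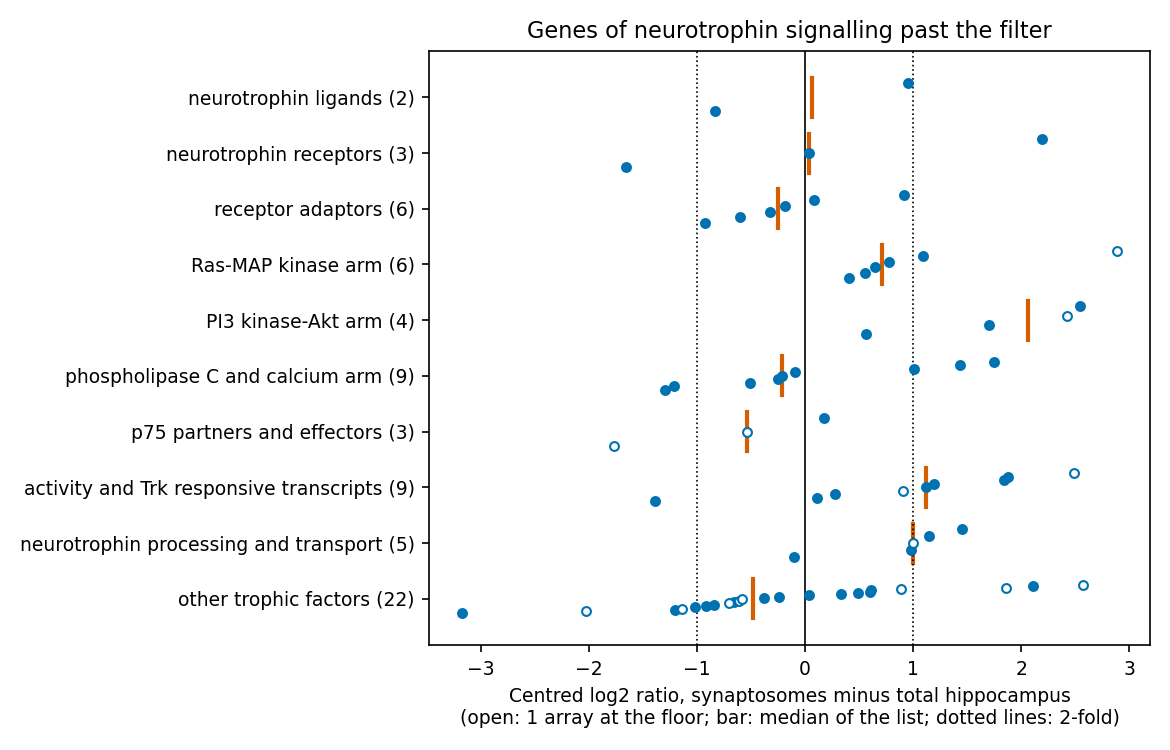
Centred log2 ratio of synaptosomes over total hippocampus for each gene past the filter in each list, with the number of genes in brackets; open points have 1 array at the floor, bars are list medians and dotted lines mark 2-fold. The PI3 kinase-Akt genes have a median of 2.06 over 4 genes and the other trophic factors one of -0.48 over 22.

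Markers of other cells and RNA quality stood as follows beside these ratios. Counts and sums use the brightest probe set of each marker past the filter. Of the 6 oligodendrocyte markers on the array, all of which passed, 3 were lower in synaptosomes by 2-fold or more and 1 was higher, with summed signals of 29296 in synaptosomes and 49584 in the hippocampus. Of the 7 astrocyte markers on the array, which all passed, 1 was higher and 1 lower, and their sums were 208142 and 218382. These sums join opposite directions, with 3 positive and 4 negative ratios. S100b, the higher one, read 61538 in synaptosomes and 27401 in the hippocampus, and Aldoc read 64325 and 101688. The lower one, Slc1a2, had a ratio of -1.51 with its brightest probe set, and -0.77 and 1.24 with others. Of the 4 endothelial markers 3 passed and 2 were lower, with sums of 5486 and 12663, and of the 6 microglial markers 3 passed and 0 reached 2-fold in either direction, with sums of 65571 and 70989. Of the microglial markers, Ctss alone contributed 55462 and 63930 to the sums, and Ptprc had a bound of -0.68. Aif1 had a ratio of 0.98 with its brightest probe set and 2.74 with another, which read 7546 in synaptosomes and 1267 in the hippocampus. The 6 neuronal markers all lay above the floor on both arrays, with a median ratio of 0.34 and sums of 92522 and 166915. Of these, 2 were at least 2-fold lower, Snap25 and Gap43, and 0 higher. Syn1, Syt1, Nefl and Map2 had ratios of 0.33, 0.35, 0.59 and 0.69 with their brightest probe sets. Snap25 alone contributed 32782 and 109086 to the sums. The ratio of 3′ to 5′ signal of the beta-actin control was 7.79 in synaptosomes and 4.96 in the hippocampus, and that of the Gapdh control was 1.07 and 1.05. Their part in the ratios of the neurotrophins and receptors was not tested, and a change in the mix of cells cannot be told apart from a change of RNA within them.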

How the data were processed

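The authors' deposited table holds 1 linear intensity per probe set and array for 8799 probe sets, 59 of them controls, on a 1-colour Affymetrix rat array. Per the labels' protocols, cDNA was amplified with a SMART kit and an oligo(dT) primer and transcribed into biotin-labelled cRNA. How the scanner output was background-corrected and scaled was not stated in the labels. At or below 0 were 25.2% of non-control values in synaptosomes and 31.4% in the hippocampus. The means without the lowest and highest 2% of probe sets were 2504 and 2505, so no scaling was added.

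From these, log2 values floored at percentile 50 of the pooled values were computed, ratios were centred, and probe sets passed at a mean log2 level of at least 10.07. A gene takes its brightest passing probe set. Platform annotation gave 7006 probe sets 1 symbol, 308 several and 1426 none; current RefSeq symbols changed 0. All member probe sets are given; of each pathway list the 3 farthest from 0 in each direction are named, as are the 3 highest and lowest other trophic factors and the 3 genes nearest to each member in ratio. Members and lists were chosen with earlier results of these data known. A simulated data set was used to test the calculation. The alternatives changed the floor, centring, scaling, filter and probe set choice. Python 3.11.15, NumPy 2.4.6, pandas 2.3.3, SciPy 1.17.1, statsmodels 0.14.6 and matplotlib 3.10.9 were used.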

Additional observations from a re-analysis of the deposited data

How the results depend on the processing

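Of 157 values recomputed under 9 alternatives, 142 moved by less than the within-gene SD of probe set ratios (for counts and shares, by no more than 1.5 times), 14 moved further, and 1 value past 2-fold changed sign. Smaller values changed sign too: Bdnf in 1 alternative and Ntrk3, near 0, in 6. Many of the 142 had little room to move. Leaving out centring or changing the filter shifts every probe set ratio by the same amount, at most 0.17. A gene with 1 passing probe set also repeats the value of that probe set. Ngfr U25650_f_at counted as unmoved although it went from -1.66 to -0.76 with the highest floor. The 142 are thus not a measure of how stable the ratios are. Over all 9 alternatives the ratio of Ntrk2 stayed between 1.68 and 2.19 and that of Ntf3 between -1.004 and -0.83. Ntrk3 had a ratio in only 7 of them, between -0.14 and 0.04, and Bdnf in 8. With the floor at the 95th percentile of negative sizes neither Bdnf nor Ntrk3 had a ratio, and leaving out suffixed probe sets removed Ntrk3. The 157 leave out values lost in this way. Without suffixed probe sets Ngfr reversed from -1.66 to 0.82 and Bdnf moved from 0.95 to -0.34, since another probe set then stands for the gene. With the mean over probe sets Ngfr was -0.42. Of the pathway genes including the members, 16 higher and 5 lower in the text, 8 and 3 were left with the floor at percentile 75, 4 and 2 with the floor at the 95th percentile of negative sizes, and 10 and 3 with the filter at percentile 75, all of which test fewer genes. Averaging the probe sets of a gene left 3 lower, and so did leaving out suffixed ones. The shares of all genes past 2-fold, 19.1% higher and 14.3% lower, were 10.1% and 7.91% with the floor at percentile 75 and 8.27% and 7.97% with the floor at the 95th percentile of negative sizes. The noise on each array limits dim members most: 11 of the 15 synaptosome readings and 13 of the 15 hippocampus readings lay at or below its size. No paired analysis was possible because each group has 1 array.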

Other observations

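Other trophic factors and their receptors, a list of 38 genes of which 36 were found on the array and 22 passed the filter, had 3 genes past 2-fold on the higher side in synaptosomes, 5 on the lower side and 14 between, with a median of -0.48. Pdgfra, a receptor of platelet-derived growth factor, read 4472 in synaptosomes and 705 in the hippocampus, at least 5.95-fold higher, while its 3 other probe sets were at the floor on both arrays. Fgfr1, a fibroblast growth factor receptor, read 3749 and 980, a ratio of 2.11, and a second probe set gave a bound of 1.90. Its remaining probe set, which did not pass the filter, read 760 and 1221, a bound of -0.36 in the opposite direction. Ret, the signalling receptor of the GDNF family, had a bound of 1.86 with signals of 2723 and -1, while its other probe sets read 403 and 914 and, at the floor on both arrays, -1237 and 345. Kitlg, the ligand of Kit, read 1779 and 18078, a ratio of -3.17, and a second design on its source sequence read 840 and 1341, a bound of -0.49. The VEGF receptors Kdr and Flt1 were lower as well, Kdr with a bound of -2.03 and signals of -315 and 3891 and Flt1 with a ratio of -1.21 and signals of 2891 and 7504. Apart from the brighter Kitlg probe set and Flt1 in the hippocampus and Pdgfra and Fgfr1 in synaptosomes, these readings lay within the noise size of their arrays. Whether this list differs from the neurotrophin members was not tested.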
